A study of Caenorhabditis elegans with 2 samples.

Results

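The regions described here are 1307 stretches of the Caenorhabditis elegans genome that stood just below the deposited significance cut of a ChIP-seq experiment on the transcription factor PAG-3. They were selected on measured values. The list called by the authors on both replicates together holds 30000 regions, and its 910 regions of highest signal are the deposited thresholded set. That set was labelled as thresholded by IDR, a procedure that compares the ranks of peaks between replicates to set a cut. The next 2090 regions, down to rank 3000 by signal, were considered, and a region was kept where the list of each replicate had a summit, the base of highest signal, within 100 bp of its own summit. The other 783 of the 2090 lacked such a summit in at least 1 replicate.

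Both samples came from the transgenic strain OP154, with the genotype unc-119(ed3) III and the integrated transgene wgIs154, which expresses PAG-3 with a tag of GFP and FLAG at the C-terminal end. Whole hermaphrodite L1 larvae, starved after bleaching, were taken 6 hours after synchronisation, and an anti-GFP antibody was used to pull the tagged protein down from chromatin sheared by sonication. The 2 biological replicates formed 1 group, each region list was called against 1 control file, and there was no second genotype or stage to compare with. Read depth is unknown, and the region lists hold no measure by which the stage or the makeup of the larvae could be checked. In whole larvae, binding in few cells and weaker binding in many cannot be told apart.

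PAG-3 belongs to the Gfi1 family of zinc finger transcription factors. Gfi1 proteins act mostly as repressors and bind DNA with an AATC core, and in C. elegans pag-3 is known for its roles in the fate of touch receptor neurons and of ventral cord neurons. In ChIP-seq a transcription factor is crosslinked to DNA and the recovered fragments are mapped, and regions at the edge of a significance cut hold weaker sites, sites of few cells and background together.

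The sequences below show what lay at the summits, 101 bases centred on each summit, read on the plus strand of the RefSeq WBcel235 genome. Capitals mark any of 5 words of 6 letters, searched on both strands. These were the GA repeat GAGAGA, the word ATGGCA, the word GACGCA, the E-box CACGTG and the Gfi1 core AATCAC. The first 5 regions are, among those on chromosomes II to V and X, the promoter regions of highest signal that hold each word in turn. T23E7.2 (chrX:17670565-17670665) carries GAGAGA and C23H3.2 (chrII:60453-60553) carries ATGGCA as its complement TGCCAT. The region of dct-1 (chrX:7954428-7954528), a gene for a mitophagy receptor, carries GACGCA as TGCGTC, with its summit 124 bp downstream of the start. The region of sar-1 (chrIV:4513497-4513597), the GTPase of COPII vesicles, holds CACGTG and GACGCA. That of pek-1 (chrX:11415255-11415355), a kinase of the unfolded protein response, holds GAGAGA and AATCAC as GTGATT. The next 2 are, on the same chromosomes, the regions of highest signal among added ribosomal and proteasome genes, rpl-23 (chrIII:5706382-5706482) and rpt-1 (chrV:11982439-11982539), and they hold none of the 5 words. The last is the region at rank 3000, in an intron of the calmodulin-related gene cal-2 (chrII:8961219-8961319), which holds none either.
T23E7.2: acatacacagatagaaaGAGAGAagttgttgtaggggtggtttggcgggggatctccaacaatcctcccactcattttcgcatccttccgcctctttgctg
C23H3.2: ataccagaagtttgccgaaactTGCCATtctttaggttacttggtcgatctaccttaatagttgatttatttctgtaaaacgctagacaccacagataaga
dct-1: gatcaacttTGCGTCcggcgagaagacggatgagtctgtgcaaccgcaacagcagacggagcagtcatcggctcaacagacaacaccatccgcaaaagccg
sar-1: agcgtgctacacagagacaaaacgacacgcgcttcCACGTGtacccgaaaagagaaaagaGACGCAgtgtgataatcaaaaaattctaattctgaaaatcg
pek-1: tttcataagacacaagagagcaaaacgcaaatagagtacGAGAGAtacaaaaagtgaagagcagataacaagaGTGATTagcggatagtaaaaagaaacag
rpl-23: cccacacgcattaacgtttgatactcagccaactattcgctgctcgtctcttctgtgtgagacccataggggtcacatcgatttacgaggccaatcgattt
rpt-1: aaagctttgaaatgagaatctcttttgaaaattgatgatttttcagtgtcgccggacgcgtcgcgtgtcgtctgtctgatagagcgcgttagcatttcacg
cal-2: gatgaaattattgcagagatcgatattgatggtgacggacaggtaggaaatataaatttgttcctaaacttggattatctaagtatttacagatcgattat

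The signal of a region is the authors' own value, on a scale that is not stated, and it is used only to rank regions within a list. In the 1307 regions it ran from 27.6 to 43.4 with a median of 32.6. The thresholded set began where they ended, at 43.4, and reached 1509 with a median of 58.5. At the cut the steps were small. The last thresholded region, 70 bp upstream of W03F8.4, had a signal of 43.4371, and its nearest replicate summits lay 155 bp and 126 bp away. The first region kept, at dct-1, had 43.4155. The region after it, upstream of F11E6.11, had 43.4135 and was not kept because its nearest summit of replicate 2 lay 101 bp away. At the lower end the region in cal-2 had 27.627 and the first region past it had 27.6196. Both thresholds thus cut through a continuous range of values. The authors' score, deposited where q-values would stand, reached at most 0.785 in the regions kept and was below 0 in 211 of them.

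Of the 783 regions not kept, 552 lacked a summit of replicate 2 only, 188 lacked a summit of replicate 1 only and 43 lacked both. A summit between 100 and 200 bp away was present for 220 of those missing in replicate 2 and for 175 of those missing in replicate 1. Over all 30000 regions 22.1% had a summit of both replicates within 100 bp, while such positions make up 1.23% of the genome. The share kept was lower at lower ranks. It was 82.5% (Wilson 95% interval 79.9 to 84.9) in the thresholded set, 68.8% (64.96 to 72.4) from there to rank 1500, 62.8% (58.5 to 66.9) on to rank 2000, 59.0% (54.6 to 63.2) on to rank 2500 and 58.4% (54.03 to 62.6) in the last 500 ranks to 3000. It was 34.5% between ranks 5000 and 10000 and 3.64% in the last 10000 ranks of the list. These shares describe the selection itself. All intervals given here cover counting error only, and neighbouring regions are not independent.

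**Figure D1:**
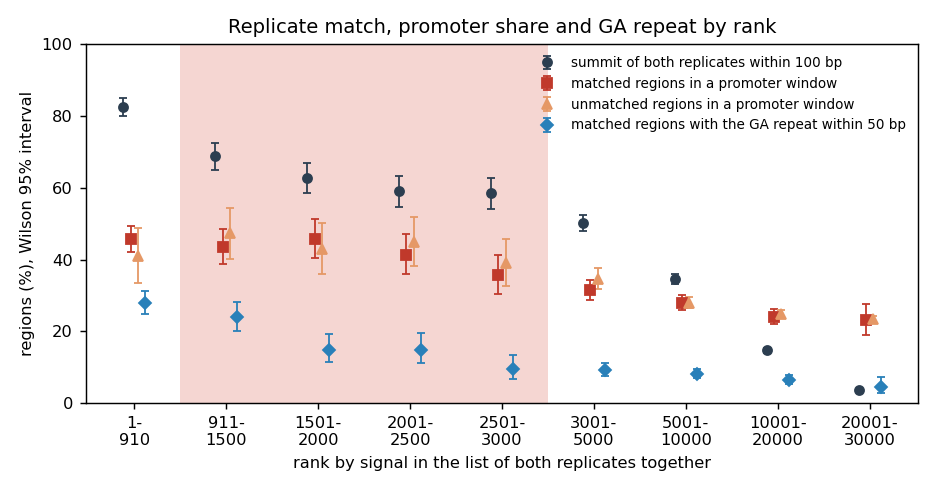
Share of regions in percent (y axis) by rank of signal in the list of both replicates together (x axis), with Wilson 95% intervals: regions with a summit of both replicates within 100 bp, promoter shares of regions with and without that match, and matched regions with GAGAGA (the GA repeat) within 50 bp of the summit. The 4 shaded bins are the ranks from the cut to 3000, where the matched share goes from 68.8% to 58.4%, the promoter shares of matched and unmatched regions lie close together, and the GA repeat goes from 23.9% to 9.59%.

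The replicates ranked these regions differently. In replicate 1 the matched region had a median signal of 18.8 (7.63 to 41.8) and a median rank of 2918, and the summits lay a median of 11 bp apart. In replicate 2 the median signal was 11.9 (6.03 to 28.6), the median rank 4028 and the median distance 22 bp. The matched region was among the 3000 highest of replicate 1 for 671 regions (51.3%), among the 3000 highest of replicate 2 for 554 (42.4%), and in both for 210 (16.1%). For 292 regions (22.3%) it was in neither, and for none was it among the 910 highest of both. Over the 1307 regions the Spearman correlation between the replicate signals was -0.36, and the correlation with the signal of both together was 0.55 for replicate 1 and 0.25 for replicate 2. These counts and correlations are descriptions only. The selection leaves out the 910 highest joint signals and holds the joint signal within a narrow range. The part of the selection in these counts and correlations was not tested.

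The extremes make the imbalance concrete. The region 3779 bp upstream of ptc-3, a gene of the Patched family, had a signal of 43.4 in the joint list. Its signal was 41.8 in replicate 1, where it ranked 491, and 6.55 in replicate 2, where it ranked 25568. The region 305 bp upstream of rpl-23, a protein of the large ribosomal subunit, had a joint signal of 41.9, a signal of 8.82 at rank 22092 in replicate 1 and of 28.1 at rank 176 in replicate 2. In all, 27 regions were among the 910 highest of replicate 1 and beyond rank 10000 in replicate 2, and 48 were the reverse. By contrast, the region at chup-1 had signals of 22.5 and 21.5 at ranks 1895 and 389. The region at atp-1, the alpha subunit of ATP synthase, ranked 824 and 1611 with signals of 32.9 and 14.9.

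**Figure D2:**
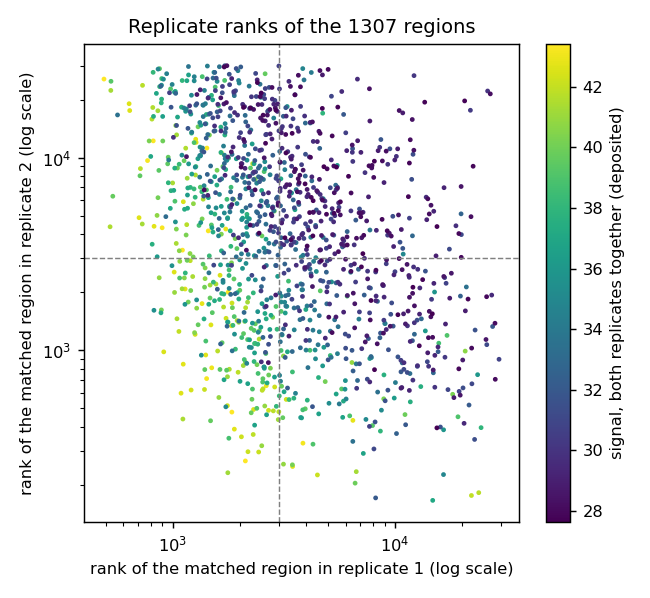
Each point is 1 of the 1307 regions, placed by the rank of its matched region in replicate 1 (x axis) and in replicate 2 (y axis), both on a log scale, and coloured by its deposited signal in the list of both replicates together. Dashed lines mark rank 3000. The lower left field holds 210 regions that are among the 3000 highest of both replicates, and the upper right holds 292 that are in neither.

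A rank better in replicate 1 was seen for 721 regions and a rank better in replicate 2 for 586. The first had a mean GC content of 38.7% ± 8.14 (SD) and the second of 35.7% ± 8.19 over the 101 bases. GAGAGA lay at 19.4% (16.7 to 22.5) of the first and 13.0% (10.5 to 15.9) of the second. The promoter share was 42.3% and 41.3%. The part of base composition in the ranks of either replicate was not tested.

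Place relative to genes was not used to choose the regions. A promoter window ran from 1000 bp upstream to 200 bp downstream of the outer start of a protein-coding gene, and such windows cover 21.5% of the genome. Of the 1307 summits, 547 lay in a promoter window (41.9%, 39.2 to 44.5), 323 in an intron (24.7%), 310 in intergenic sequence (23.7%), 59 in a coding exon (4.51%), 29 in a non-coding gene (2.22%), 27 in a 3' untranslated region (2.07%) and 12 in a 5' untranslated region (0.918%). The thresholded set had 44.8% of its summits in promoter windows, a difference of -2.98 percentage points with a Newcombe 95% interval of -7.17 to 1.202. Against the ranks below 3000, with 25.5%, the difference was 16.3 points (13.6 to 19.1). In this share the regions lay closer to the thresholded set than to the rest of the list, although an interval that spans 0 does not show that the shares were equal.

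The requirement of a match in both replicates did not go with a higher promoter share. The 783 regions of the same ranks that were not kept had 43.4% of summits in promoter windows, and the difference was -1.57 points (-5.96 to 2.79). Among regions kept, the promoter share was 43.6% (38.9 to 48.5) in the ranks from the cut to 1500 and 35.6% (30.3 to 41.3) in those from 2500 to 3000. Among regions not kept, the corresponding shares were 47.3% (40.2 to 54.5) and 38.9% (32.6 to 45.7). With a window of 500 bp upstream, 31.5% of the regions and 36.5% of the thresholded set lay in it, and that difference was -4.96 points (-8.98 to -0.961).

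Coding exons held 4.51% (3.52 to 5.78) of the summits against 1.099% of the thresholded set, a difference of 3.42 points (2.06 to 4.78). They held 15.3% of summits at lower ranks. Within the range the coding share of kept regions was 1.48% (0.679 to 3.19) from the cut to rank 1500 and 6.51% (4.20 to 9.94) between ranks 2500 and 3000. Summits in 3' untranslated regions were 1.52 points (0.544 to 2.49) more frequent than in the thresholded set. For introns the difference to the thresholded set was 1.75 points (-1.89 to 5.30) and that to lower ranks -6.11 points (-8.44 to -3.64). The 323 intron regions lay in 294 genes with a median length of 8.67 kb, and the median over all protein-coding genes was 2.03 kb. Of these regions, 143 (44.3%) lay in genes longer than 10 kb. Longer genes offer more intron sequence, and the part of gene length was not tested.

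**Figure D3:**
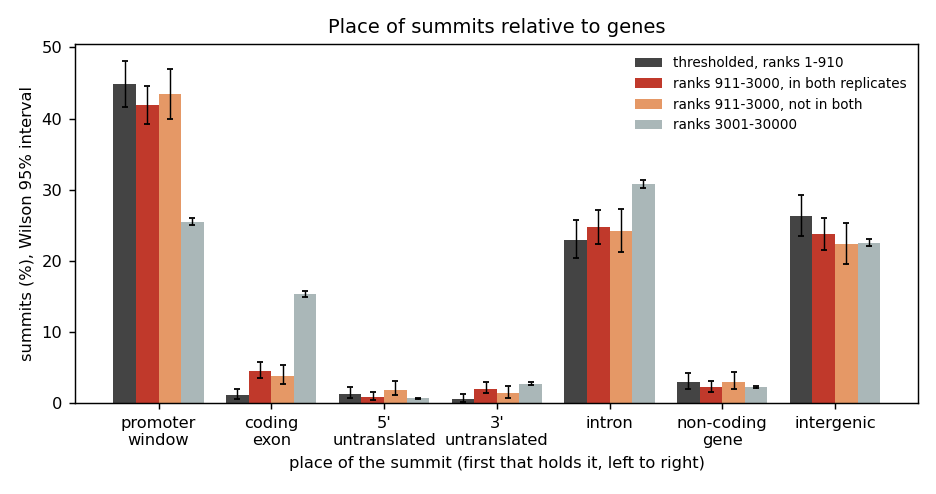
Share of summits in percent (y axis) by place relative to genes (x axis), with Wilson 95% intervals, for the thresholded set, the 1307 regions kept, the 783 not kept and the ranks below 3000. The 3 sets of higher rank lie between 41.9% and 44.8% in promoter windows, above 25.5% for the lower ranks, which have more coding exon and intron summits.

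Within promoter windows the summits lay a median of 234 bp upstream of the start (signed position -234, quartiles -466.5 and -99). Of the 547, 264 (48.3%) lay within 300 bp upstream and 64 (11.7%) downstream of the start. In the thresholded set the median position was -208.5 and 57.8% lay within 300 bp upstream. At lower ranks the median was -316 and the share 30.7%. At the far end, 125 of the 1307 regions (9.56%) were more than 5 kb from any protein-coding start.

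Few of these regions lay next to a thresholded peak. Only 12 lay within 500 bp of a thresholded summit, 59 (4.51%, 3.52 to 5.78) within 1000 bp and 242 (18.5%, 16.5 to 20.7) within 5000 bp, and the median distance was 31.3 kb. Of the lower ranks, 1.84% lay within 1000 bp and 9.91% within 5000 bp. The regions not kept gave 4.85% and 20.1%.

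The X chromosome held 233 of the regions (17.8%, 15.8 to 19.995), close to its 17.7% share of the genome's length. The thresholded set had 24.3% on X, and the difference was -6.46 points (-9.96 to -3.02). Among kept regions the X share was 24.9% in the thresholded ranks, 19.95% (16.4 to 24.1) from the cut to rank 1500 and 13.7% (10.2 to 18.1) between ranks 2500 and 3000. Chromosome IV held 234 regions, 4.28 points (1.18 to 7.28) more than in the thresholded set. Per megabase, chromosome III was the densest with 16.6 regions and chromosome V the sparsest with 10.04.

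Sequence at the summits was likewise not used to choose the regions. The first 4 of the words above had been counted at thresholded summits in earlier work on these data. They were chosen with those results known, and the part of that choice in their differences to the thresholded set was not tested. The Gfi1 core AATCAC and the GATA-type word TGATAA were counted beside the 4 words. GAGAGA, searched also as TCTCTC, lay within 50 bp of 216 summits (16.5%, 14.6 to 18.6). It lay in 7.04% (6.12 to 8.08) of the flanking windows, centred 300 bp away on either side, and at 7.78% of all 30000 summits. In the thresholded set it lay at 28.8% of summits, and the difference, regions minus thresholded, was -12.3 points (-15.8 to -8.72). The 783 regions of the same ranks that were not kept had it at 19.0% of summits. That difference, regions minus not kept, was -2.50 points (-5.98 to 0.843).

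The other words had smaller shares. ATGGCA, or TGCCAT, lay at 5.203% (4.12 to 6.54) of summits against 2.95% of flanks and 3.81% of all 30000 summits. GACGCA, or TGCGTC, lay at 5.81% (4.67 to 7.22) against 2.91% of flanks and 2.68% of all summits. CACGTG, the same on both strands, lay at 4.06% (3.11 to 5.27) against 1.91% of flanks and 2.09% of all summits. Their thresholded shares were 15.2%, 11.98% and 5.71%. In the regions not kept the shares were 5.87%, 7.41% and 4.09%. At least 1 of these 4 words was present at 363 of the 1307 summits (27.8%, 25.41 to 30.3), at 48.8% of thresholded summits and at 12.6% of lower-ranked ones. The difference to the thresholded set was -21.02 points (-25.03 to -16.9). The regions not kept had such a word at 30.9% of summits, and the difference to them was -3.13 points (-7.21 to 0.872). So 27.8% of the regions carried such a word, as T23E7.2 and sar-1 do in the sequences shown, and the rest, as at rpl-23 and rpt-1, did not.

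The Gfi1 core, AATCAC or GTGATT, was not more frequent at the summits than beside them. It lay at 81 summits (6.20%, 5.01 to 7.64) and in 5.78% (4.95 to 6.74) of flanking windows, and at 5.58% of all 30000 summits. TGATAA, or TTATCA, lay at 12.6% (10.9 to 14.5) of summits and 8.99% (7.95 to 10.1) of flanks, and at 10.3% of all summits. In the thresholded set the corresponding shares of TGATAA were 11.3% (9.42 to 13.5) and 10.5% (9.22 to 12.04). A word match is a description of these letters and says nothing of whether a protein binds them.

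Base composition moved with the words. GC content was 37.4% ± 8.30 (SD) over the 1307 summits and 35.0% in their flanks, 43.8% ± 7.64 in the thresholded set, 39.2% ± 8.41 in the regions not kept and 34.3% ± 7.82 at lower ranks. Along the ranks of kept regions the mean GC content was 39.8% from the cut to rank 1500 and 35.3% between ranks 2500 and 3000, while GAGAGA went from 23.9% (20.001 to 28.3) to 9.59% (6.72 to 13.5). The part of GC content in the word shares was not tested.

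**Figure D4:**
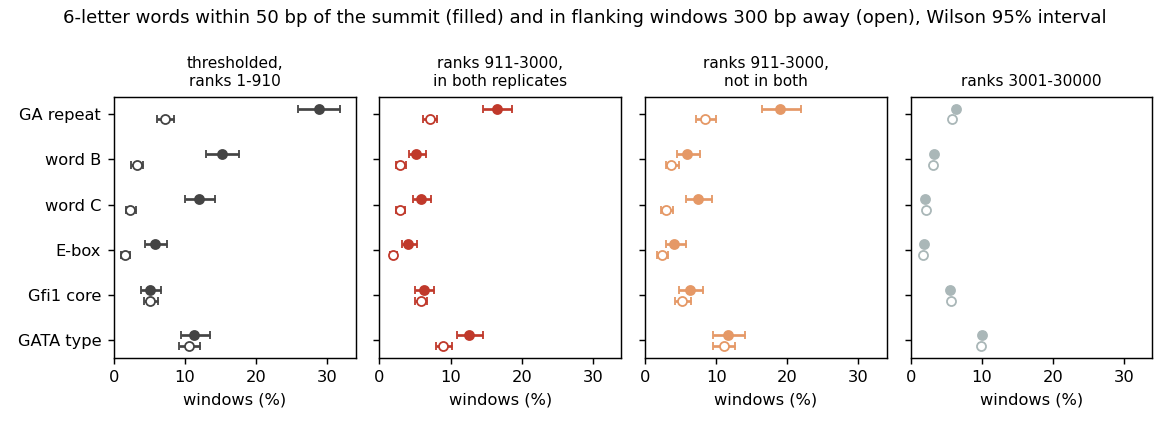
Share of windows in percent (x axis) that hold each word (y axis) near the summit, up to 50 bp away (filled), and in flanking windows 300 bp off (open), with Wilson 95% intervals, in 4 sets of regions. GA repeat is GAGAGA, word B is ATGGCA, word C is GACGCA, E-box is CACGTG, Gfi1 core is AATCAC and GATA type is TGATAA. In the 1307 regions the GA repeat stands at 16.5% of summits and 7.04% of flanks, between the thresholded set and the lower ranks, and the Gfi1 core at 6.20% and 5.78%.

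The genes of the thresholded set are the 511 of 19973 protein-coding genes (2.56%) with a thresholded summit in the promoter window. A region below the cut lay in the promoter window of 698 genes (3.49%). Of these, 18 already had a thresholded summit and 680 (3.4% of all genes) were added, so that the total became 1191 genes (5.96%). Among genes without a thresholded summit the share added was 3.49%, the same as over all genes. The overlap of 18 of 698 was thus near the 2.56% of all genes with a thresholded summit. Windows of neighbouring genes overlap, and 149 of the 547 promoter regions lay in more than 1 window. Only 6 of the added genes had more than 1 such region. For 526 of the added genes no other region of the 30000 lay in the window, and 243 are named only by their sequence. An added gene need not have the start nearest to the summit. Among genes named below, another start lay nearer at nlp-4 (exos-3), hsp-60 (Y22D7AL.10), tbb-1 (rib-2) and tba-1 (cox-5B). The same held at dnj-22 (natc-1), srh-89 (F25E5.1) and clec-115 (C49A1.10). The regions of the same ranks that were not kept lay at 419 genes (2.10%), of which 397 were in neither of the other sets. The 26 gene lists described next were written with earlier results of these data known, and no test was made on them.

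Of the 26 lists, cytosolic ribosomal proteins had the most added genes. Of 81 cytosolic ribosomal protein genes, 16 had a thresholded promoter summit. Of the other 65, 12 were added (18.5%, 10.9 to 29.6), against 3.49% of all genes without a thresholded summit. The list thus reached 28 of 81. Regions of the same ranks that were not kept lay at 7 of the 81 genes (8.64%), against 2.10% of all genes. The summits at the 12 added genes lay 109 to 962 bp upstream. The regions at rps-10 and rpl-24.1, which share 1 region between their starts, and at rpl-23 and rps-22 had the highest joint signals. At rps-10 the signals were 42.1 in the joint list, 26.1 at rank 1391 in replicate 1 and 18.8 at rank 625 in replicate 2. At rps-22, a protein of the small subunit, they were 39.6, 25.4 at rank 1473 and 14.4 at rank 1866. The genes rpl-39 and rps-30 also share a region, with a joint signal of 30.5. The others were rpl-18, rpl-38, rps-28, rps-11, rpl-6 and rps-8. At rps-8 the region ranked 11363 in replicate 1 and 766 in replicate 2, while at rpl-6 it ranked 1401 and 14955.

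Of 40 translation factors, 4 had a thresholded promoter summit. Of the other 36, 4 were added (11.1%, 4.41 to 25.3), against 3.49% of all genes without a thresholded summit. These were eif-1.A, eif-3.C, eif-3.G and eif-3.E, for an initiation factor and 3 subunits of eIF3. At eif-1.A the signals were 42.9 in the joint list, 23.6 in replicate 1 and 11.8 in replicate 2. At eif-3.C they were 39.7, 20.8 and 20.3. Regions not kept lay at 8 genes of this list, more than the regions kept did. Of 33 proteasome subunits, 3 had a thresholded summit and 4 of the other 30 were added (13.3%, 5.31 to 29.7). They were rpt-1 and rpt-6, ATPases of the regulatory particle, pas-3 of the core and rpn-7 of the lid. The signals at rpt-1 were 35.7 in the joint list, 19.9 in replicate 1 and 17.6 in replicate 2. At rpn-7 they were 28.6, 18.9 at rank 2897 and 7.62 at rank 18124. Of 29 ATP synthase and V-ATPase subunits, 4 had a thresholded summit. Of the other 25, only atp-1 was added (4%, 0.710 to 19.5), near the 3.49% of all genes.

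Muscle genes had a high thresholded share and few added genes. Of 74, 23 had a thresholded promoter summit (31.1%, 21.7 to 42.3), and only 2 of the other 51 were added (3.92%, 1.08 to 13.2), near the 3.49% of all genes. The added genes were the actin gene act-2 and unc-23, which encodes a BAG-type co-chaperone. Both ranked high in replicate 1 and low in replicate 2. The signals at act-2 were 38.9 in the joint list, 27.4 at rank 1249 and 8.85 at rank 11962, and those at unc-23 were 40.1, 24.6 at rank 1584 and 9.79 at rank 8594. Of 176 cuticle collagens, 10 had a thresholded summit and 2 of 166 were added (1.20%, 0.331 to 4.29), col-184 and col-80. At col-80 the signals were 34.3, 25.7 at rank 1433 and 6.05 at rank 29873.

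**Figure D5:**
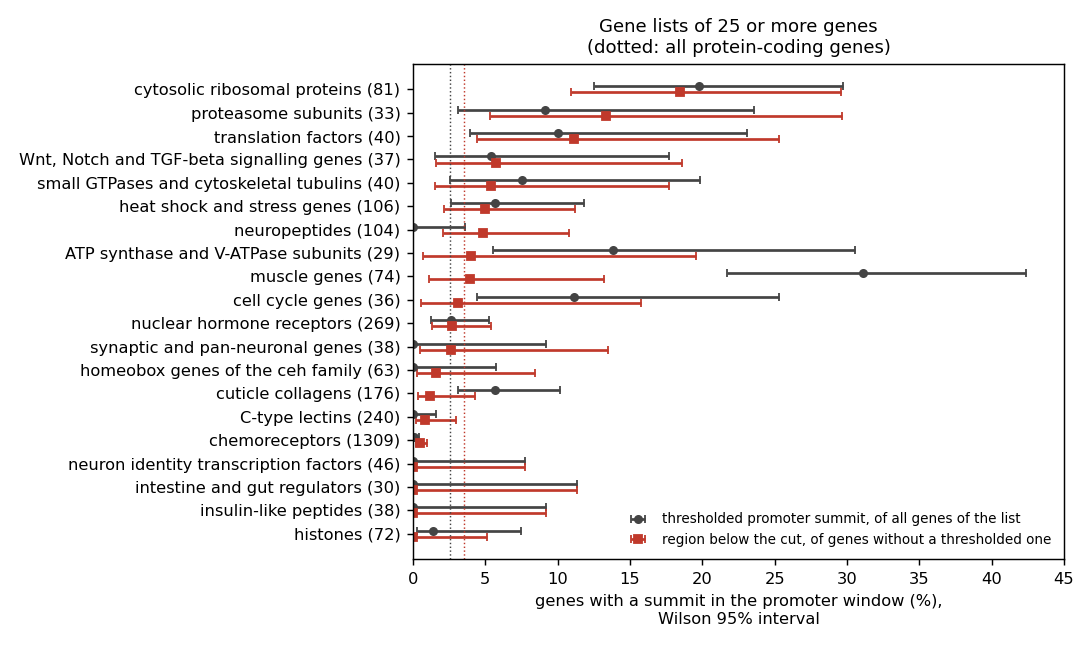
Share of genes in percent (x axis) with a summit in the promoter window, with Wilson 95% intervals, for each gene list of 25 or more genes (y axis, list size in brackets): thresholded summits over all genes of the list, and regions below the cut over the genes without a thresholded summit. Dotted lines give the same shares over all protein-coding genes, 2.56% and 3.49%. Ribosomal proteins stand at 19.8% and 18.5%, muscle genes at 31.1% and 3.92%.

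Several lists covered the nervous system, where PAG-3 is known to act. Apart from chemoreceptors, given below, their added shares had intervals that include the 3.49% of all genes. None of the 15 touch receptor neuron genes had a thresholded summit or a region below the cut in the promoter window, and a count of 0 allows a share of up to 20%. None of 46 neuron identity transcription factors was added, which allows up to 6.52%, nor any of 38 insulin-like peptide genes, which allows up to 7.89%. Of 38 synaptic and pan-neuronal genes, syd-2 was added, which encodes the active zone protein liprin-alpha. Its signals were 31.4 in the joint list, 29.5 at rank 1041 in replicate 1 and 8.26 at rank 14685 in replicate 2. Of 63 homeobox genes of the ceh family, ceh-34, a Six-type factor, was added. Of 104 neuropeptide genes none had a thresholded summit and 5 were added (4.81%, 2.07 to 10.8), against 3.49% of all genes.

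The 5 neuropeptide genes rested on 4 regions. At nlp-4 the signals were 40.1 in the joint list, 22.4 in replicate 1 and 12.1 in replicate 2. The genes nlp-31 and nlp-34 share a region with signals of 32.4, 9.28 at rank 19712 and 14.3 at rank 1909. At nlp-27 they were 27.8, 11.4 and 10.7, and at flp-18, which encodes FMRFamide-like peptides, 28.4, 12.4 and 12.9. The genes nlp-27, nlp-31 and nlp-34 belong to a cluster known for antimicrobial peptides of the epidermis.

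Among large gene families, chemoreceptors and C-type lectins were sparsely represented. Of 1309 chemoreceptor genes, 1 had a thresholded summit and 6 of the other 1308 were added (0.459%, 0.210 to 0.997), fewer for their number than the 3.49% of all genes. The highest was srh-89, with signals of 41.6, 33.2 at rank 807 and 8.02 at rank 15840. Of 240 C-type lectin genes 2 were added (0.833%, 0.229 to 2.99), clec-126 and clec-115. Of 269 nuclear hormone receptors, 7 had a thresholded summit and 7 of the other 262 were added (2.67%, 1.30 to 5.41). The interval of the nuclear hormone receptors includes the 3.49% of all genes. The 4 of highest signal were nhr-69, nhr-119, nhr-79 and nhr-58. At nhr-69 the signals were 40.2, 12.5 at rank 8907 and 19.4 at rank 559.

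Among stress genes, 6 of 106 had a thresholded summit and 5 of the other 100 were added (5%, 2.15 to 11.2), near the 3.49% of all genes without a thresholded summit. They were hsp-60, the mitochondrial chaperonin, hsp-1, the constitutive Hsp70, sod-1, a superoxide dismutase, and the DnaJ genes dnj-22 and dnj-14. At hsp-60 the signals were 37.0, 31.6 at rank 886 and 14.98 at rank 1563, high in both replicates. At dnj-22 they were 30.6, 30.6 at rank 968 and 7.07 at rank 21712. The tubulin genes tbb-1 and tba-1 were the 2 added of 37 in the list of small GTPases and tubulins (5.41%, 1.495 to 17.7). The region at tba-1 lay 483 bp from a thresholded summit, which was itself outside the promoter window of tba-1. The E2F gene efl-1 was the only 1 of 32 cell cycle genes added (3.13%, 0.554 to 15.7), with signals of 42.6, 37.1 at rank 637 and 7.47 at rank 19045. The aldolase gene aldo-2 was added among 16 glycolysis genes (6.25%, 1.11 to 28.3), and daf-1, a TGF-beta receptor, and daf-14, a Smad, among 35 signalling genes (5.71%, 1.58 to 18.6). The intervals of these lists all include the 3.49% of all genes. None was added of 14 heterochronic genes, 71 histone genes, 30 intestine and gut regulators, 16 epidermal attachment genes or 12 epidermis regulators. These counts of 0 allow up to 21.4%, 4.23%, 10%, 18.75% and 25%.

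Some genes held several regions. Counting the gene body and 5 kb upstream, 1922 genes held 1 region, 164 held 2, 24 held 3 and 3 held 4. A region counts for each gene whose span holds it, so the same region can stand under several genes. Those with 4 were daf-16, psd-1 and let-756. The gene daf-16 encodes the FOXO factor of the insulin pathway, which acts in starved L1 larvae, and is 26.2 kb long. It held 3 intron regions and a region 299 bp upstream of its start, with joint signals from 28.4 to 33.9, beside 2 thresholded peaks. At the upstream region the signals were 32.1, 20.7 at rank 2295 and 9.89 at rank 8279. The gene psd-1, for phosphatidylserine decarboxylase, had joint signals of 28.2 to 43.2 and no thresholded peak in the same span. Its region with a joint signal of 33.5 lay nearer to the start of spot-1. The 4 regions of let-756, a fibroblast growth factor gene, all lay upstream, between 1155 and 4471 bp from the start.

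Among genes with 3 regions, hlh-30, the worm TFEB gene, had 9 thresholded peaks in the same span. Its regions stood out in replicate 2, at ranks 182 and 171 for the upper 2, against 23832 and 8189 in replicate 1. The lowest, with a joint signal of 31.1, lay in a non-coding gene and nearer to the start of F35F11.2. The gene aakg-1, for a gamma subunit of AMP-activated kinase, is 36.7 kb long and held 3 intron regions with no thresholded peak. The POU homeobox gene ceh-18 and the deubiquitinase gene cyld-1 also had 3 and no thresholded peak. The region of cyld-1 with a joint signal of 30.2 lay nearer to the start of cbp-3.

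The 20 regions of highest signal were mixed in place, with joint signals from 42.7 to 43.4. They included promoter regions of sax-7, a neural cell adhesion protein, hrg-1, a heme transporter, and ubc-25, a ubiquitin-conjugating enzyme. Intron regions lay in unc-82, a muscle kinase gene, and psd-1, and intergenic ones lay nearest to apl-1, the amyloid precursor-related gene, and acs-11. At sax-7 the signals were 43.2, 31.4 at rank 897 and 11.7 at rank 4321. At apl-1 they were 43.2, 25.8 at rank 1422 and 18.3 at rank 712.

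None of the 10 genes chosen for their ties to PAG-3 or the strain had a region in its promoter window. These were pag-3 itself and unc-119, which is mutated in the strain, the ventral cord genes unc-4 and unc-3, the touch neuron genes mec-7, mec-4 and mec-3, and the regulators egl-46, egl-44 and unc-86. Over all protein-coding genes only 3.49% had such a region, so finding none among 10 genes does not show a lack of regions there. The nearest region to pag-3 was 100.8 kb from its start, and no region of the 30000 lay within 3613 bp. The touch neuron tubulin gene mec-7 had a region 2.61 kb from its start with a joint signal of 39.5. The TEAD factor gene egl-44 held 2 regions within the gene, the nearer 2.99 kb from the start with a joint signal of 36.0. The region near mec-7 ranked 3950 in replicate 1 and 496 in replicate 2, and this egl-44 region ranked 23554 and 746.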

How the data were processed

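ChIP-seq of PAG-3 was measured in 2 biological replicates of 1 group, taken from the labels. Per the file headers and descriptions, the authors deposited lists of 30000 regions as input for IDR, for each replicate and for both together, derived from alignments on ce11 and ce10 with 1 control file, and a thresholded set. Aligner, caller and versions were not given in the sources used here. Signal (column 7), as deposited, is the authors' region height on an unstated scale, and the deposited score (column 9), in place of q-values, includes values below 0. The deposited summit offset, a whole-number distance without a unit of signal, gave summits. Depth is unknown.

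Computed here, with Python 3.11.15, numpy 2.4.6, pandas 2.3.3 and scipy 1.17.1: summit matches within 100 bp, places from Ensembl release 115 on WBcel235 (in the order of the plot of places, leaving out piRNA genes), word counts in the RefSeq genome, Wilson 95% and Newcombe intervals. Scripts were tested on simulated data. No test was made, since signal and match chose the regions and regions of 1 library are not replicates. Limits for counts of 0 took 3 counts as the floor. Fixed list lengths make the number of regions no measure of enrichment.

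The regions, gene lists, words and alternatives were chosen with earlier results of these data known. Named genes are those of the 20 highest regions, of the 5 just inside each end, up to 4 added genes of highest signal per list, the 10 genes with most regions, and 10 genes tied to PAG-3 or the strain. Others were named after their values were seen.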

Additional observations from a re-analysis of the deposited data

How the results depend on the processing

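Of 67 alternative values, 50 differed from the reported ones by less than their interval or by less than 1.5 times for counts, and 17 moved further. Matching only to the 3000 highest regions of each replicate left 210 regions and 131 added genes, with shares of 45.2% in promoter windows, 1.90% in coding exons, 22.4% in introns and 22.4% with GAGAGA. Stopping at rank 2000 gave 720 regions, 408 added genes, 44.6% in promoter windows, 2.64% in coding exons and 20% with GAGAGA, as fewer ranks were used. Promoter windows of 500 and 2000 bp held 31.5% and 54.9% of the summits, and placing coding exons first gave 39.1% in promoter windows and 7.27% in coding exons. A word window of 100 bp gave GAGAGA at 28.5%, and giving each summit to the nearest start gave 1048 added genes. Without either replicate in the match there were 1495 to 1859 regions, 776 to 963 added genes, 41.9% to 42.3% in promoter windows, 4.20% to 4.68% in coding exons, 24.1% to 24.9% in introns, 17.9% to 18.6% on X, 4.41% to 4.62% within 1000 bp of a thresholded summit and 16.2% to 17.9% with GAGAGA. The ce10 lists gave 1293 regions. Under every matching alternative the interval of the promoter difference to the regions not kept spanned 0. No paired analysis was possible because the 2 replicates form 1 group. Unknown read depth and the unstated signal scale limit every value.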

Other observations

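The 59 regions in coding exons carried CACGTG, the E-box, at 10 summits (16.9%, Wilson 95% interval 9.48 to 28.5). It lay at 3.29% (2.09 to 5.14) of the promoter regions and 3.72% (2.14 to 6.38) of the intron regions. It lay at 2.62% of all coding-exon summits of the 30000 regions and at 2.39% of those below rank 3000. It lay at 1 of 30 coding-exon summits not kept at the same ranks and at 1 of 10 thresholded ones. This word and place were picked out after the values were seen, among 6 words and 4 places. The regions lay in peb-1, C50D2.1, tbc-11, tba-7, F21C10.10, tbcc-1, mppe-1, Y42A5A.1, cft-1 and W04C9.5. The highest, in peb-1, had a joint signal of 41.4, with rank 1046 in replicate 1 and rank 1456 in replicate 2. The gene tba-7 encodes an alpha-tubulin, and its region ranked 2187 and 3141. At tbcc-1 the ranks were 8544 and 11309. Coding-exon regions had a mean GC content of 41.4% ± 5.98 (SD) and promoter regions of 37.2% ± 8.79.

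Small non-coding RNA genes lay beside some regions. A tRNA gene was within 200 bp of 28 summits (2.14%, 1.49 to 3.08), against 1.43% (0.837 to 2.43) of the thresholded set, 2.81% of the regions not kept and 0.507% (0.429 to 0.599) of lower ranks. A snoRNA gene was within 200 bp of 19 summits (1.45%, 0.933 to 2.26), against 1.21% of the thresholded set, 0.383% (0.130 to 1.12) of the regions not kept and 0.315% of lower ranks. Pseudogenes were within 200 bp of 14 summits (1.07%, 0.639 to 1.79), against 0.110% of the thresholded set and 2.29% of lower ranks. No rRNA gene lay that near to any of the 1307 summits, and such a count of 0 has a Wilson upper bound of 0.293%.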
